A study of Mus musculus with 6 samples.

Results

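Ribosome biogenesis genes code for the nucleolar machinery that makes ribosomes, and 38 of them, listed by symbol as genes driven by the transcription factor Myc, were followed in CD24- and CD24+ cells. Membership was by symbol, with no threshold on the values, but the list was chosen with earlier results of these data known. The cells are Mvt1, a line of mammary epithelial cancer cells from FVB/N mice, which was stained for the surface marker CD24 and split by flow sorting into CD24- and CD24+ cells. Messenger RNA was sequenced from 3 plates of each sorted group, grown in DMEM with fetal bovine serum and given no other treatment, and all 6 libraries come from this one line. Reads annotated to the same symbol were found for 34 of the 38 genes, Nop58 was found under its older symbol nop5, and all 35 had enough reads to be tested, of 11125 genes tested and 14769 annotated. Utp20, Wdr43 and Noc2l had no annotation and were counted only through reads that match their transcripts.

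In the nucleolus, RNA polymerase I transcribes the long precursor of the ribosomal RNAs. Small nucleolar ribonucleoproteins (snoRNPs) modify it, box C/D particles by ribose methylation and box H/ACA particles by pseudouridylation, and large assemblies of processing factors cut, fold and package it into the small and the large subunit. Myc is known to bind near many of these genes through the E-box CACGTG and to raise ribosome production in growing and malignant cells. Mvt1 cells were derived from a mammary tumor of a mouse with Myc and Vegf transgenes, and the counts do not separate reads of a transgene from those of the mouse gene.

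Libraries held 9046025 to 25692147 mapped reads, of which 71.8% to 74.3% were annotated to a gene. CD24+ replicate 1 was the shallowest library and CD24+ replicates 2 and 3 were the deepest. A tested member had between 181 and 35613 reads in a library. Levels are given as CPM, the reads of a gene scaled to the TMM-adjusted gene reads of its library in edgeR, so that they are relative to the other mRNAs of a library and not to a cell. The levels of the cell type markers below were scaled to gene reads without the TMM adjustment. Cd24a, the gene of the sorted marker, was higher in CD24+ cells (77.1 ± 7.31 CPM against 10.2 ± 2.79 CPM, SD, n = 3 each). The epithelial keratin genes Krt8 and Krt18 were abundant in every library, but Epcam, Cdh1 and 5 others of 10 epithelial markers had a mean under 5 CPM, and the summed level of the 10 was 1846 to 2065 CPM in CD24- and 757 to 884 CPM in CD24+ libraries. The sum of 10 fibroblast markers, most of it Vim, was 3652 to 4461 CPM in CD24- and 4192 to 5068 CPM in CD24+ libraries, where Thy1 and Lum had no annotation and were not measured. The sum of 7 leukocyte markers was 77.1 to 115 CPM against 32.4 to 42.2 CPM, where Cd3e and Adgre1 had no annotation, and that of 6 endothelial markers, of which Emcn had none, was at most 4.70 CPM. The part of these differences in the results was not tested.

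Every listed ribosome biogenesis gene that was called was lower in CD24+ cells. Of the 35 members tested, 19 fell, 16 were not called and none rose at an adjusted p below 0.05 (quasi-likelihood test of edgeR, p adjusted by Benjamini-Hochberg across the 11125 genes), where 22.3% of all genes tested fell, 23.8% rose and 46.1% did either. Called members kept between 46.8% and 84.1% of their CD24- level by the fitted fold change, with a median log2 fold change of -0.47. Over all 35 members the median was -0.29 against 0.02 for all genes. In an estimate from median coverage, with its own normalization and regularizer, the median was -0.20 over the 34 members tested there, against -0.01 for all genes. A log2 fold change below 0 was found in 33 of 35 members and in 48.5% of all genes. A log2 fold change of -0.5 or lower was found in 22.9% of members and 13.4% of all genes, and one of -1 or lower in 1 member (Rrp1b, 2.86%) and 5.42% of all genes. The CPM of 20 members lay in separate ranges in the 2 groups, lower in CD24+ cells each time, where 57.3% of all genes had separate ranges and 27.6% had them in that direction. Fewer cells in a given state and less RNA per cell cannot be told apart in these bulk libraries.

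**Figure D1:**
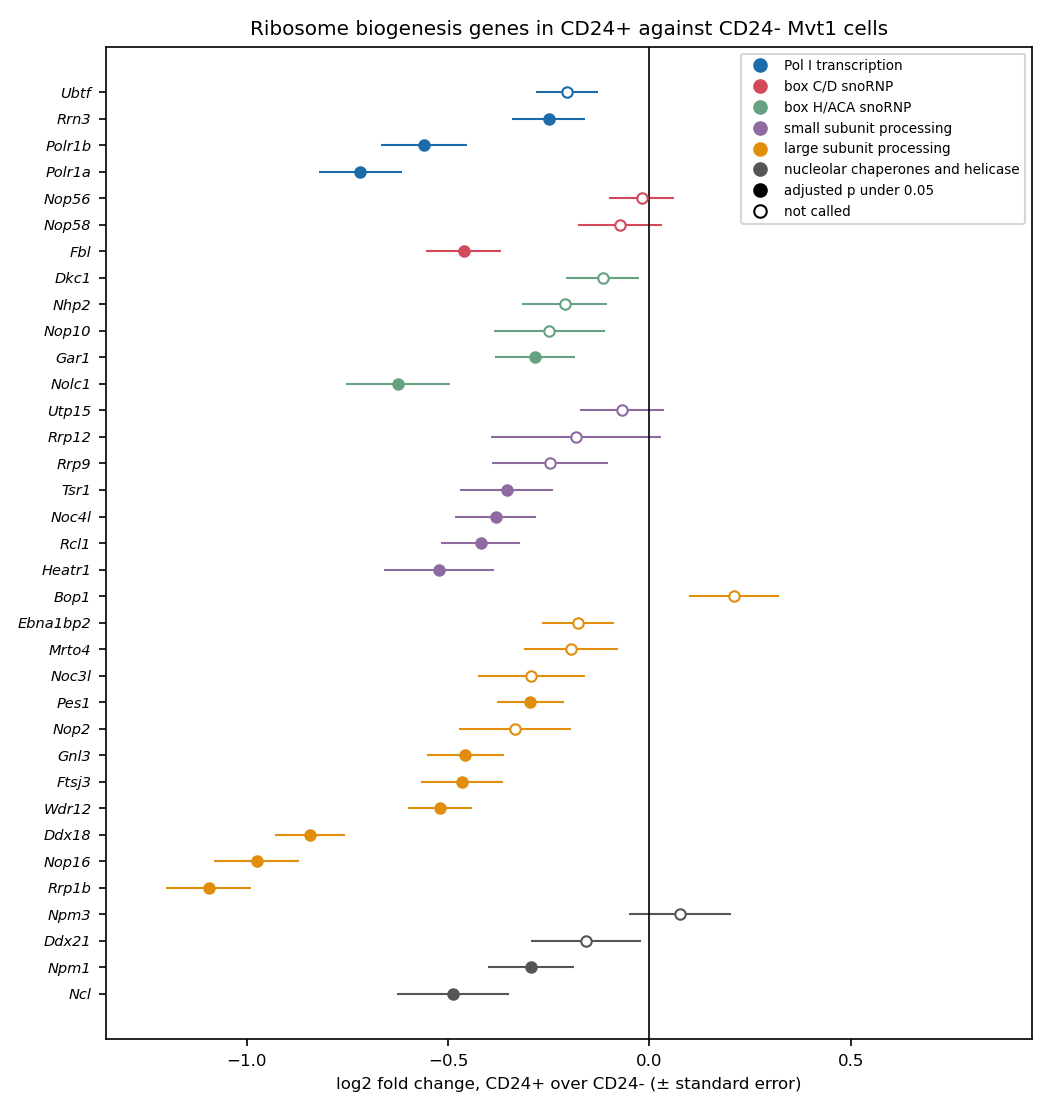
Log2 fold change of the 35 tested ribosome biogenesis genes in CD24+ over CD24- cells (x axis, 3 libraries a group) with the standard error as a bar, coloured by role and filled where the adjusted p was below 0.05. The filled points, 19 in all, lie left of 0, from Rrp1b at -1.10 to Rrn3 at -0.25, and Bop1 and Npm3 are the members right of 0.

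Myc itself was far lower in CD24+ cells. It had 988, 937 and 767 CPM in CD24- replicates 1, 2 and 3 and 193, 276 and 285 CPM in CD24+ replicates 1, 2 and 3, so that the groups did not overlap. The CD24+ mean was 28.0% of the CD24- mean (log2 fold change -1.83 ± 0.15 SE, adjusted p = 5.77e-06 by edgeR). All 35 tested members changed less than Myc. A log2 fold change of even -1 or lower was found in only 5.42% of all genes tested, so that this count says little about the members. The 35 members together took 0.836% to 0.941% of gene reads in CD24- libraries and 0.618% to 0.778% in CD24+ libraries, of which Ncl and Npm1 made up 44.4% to 48.1%. Without these 2 genes the summed level was 4357, 4380 and 5012 CPM in CD24- replicates 1, 2 and 3 and 3507, 4083 and 3480 CPM in CD24+ replicates 1, 2 and 3.

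**Figure D2:**
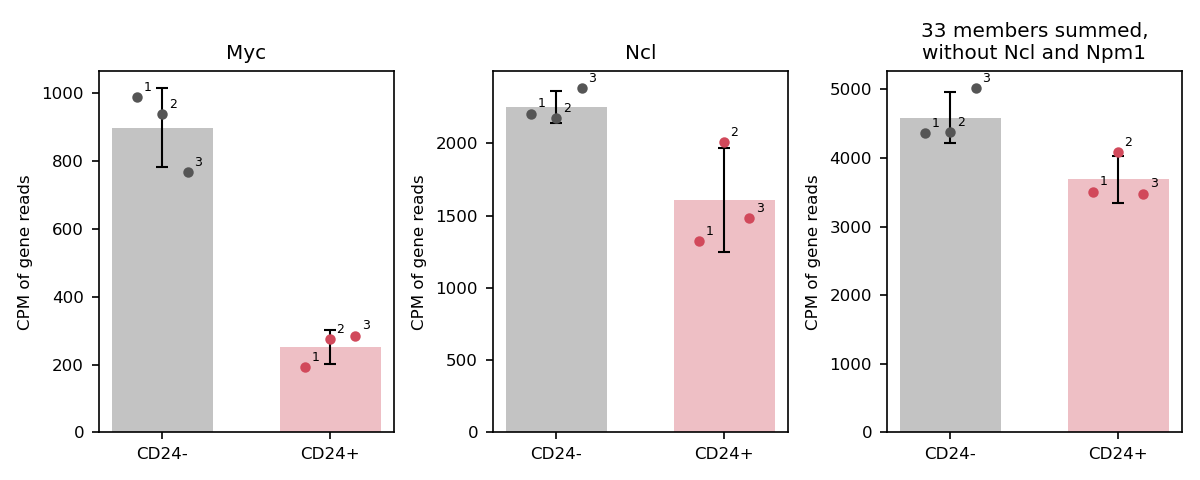
CPM of Myc, of Ncl and of the other 33 tested members without Npm1, summed, in CD24- and CD24+ cells. Bars are means, error bars are SD (n = 3), points are libraries with their replicate number, and the axes start at 0. Myc differs most between the groups, and CD24+ replicate 2 is the highest CD24+ library for Ncl and for the sum.

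The genes of RNA polymerase I transcription had separate ranges in the groups, lower in CD24+ cells for all 4, and 3 of the 4 passed the test. Over all genes tested, 27.6% had separate ranges in that direction and 22.3% fell. The counts of each role below stand beside these shares. Polr1a, the largest subunit of the polymerase, had 321, 338 and 356 CPM in the CD24- libraries and 179, 235 and 201 CPM in the CD24+ libraries (log2 fold change -0.72 ± 0.10 SE, adjusted p = 2.72e-04 by edgeR). Polr1b, the second catalytic subunit, had 112, 116 and 118 CPM against 66.4, 90.0 and 77.2 CPM (log2 fold change -0.56). Both core subunits thus stood at 60.7% and 67.4% of their CD24- level. Rrn3, which brings the polymerase to the ribosomal gene promoter, went from 118 ± 6.08 CPM to 98.9 ± 9.47 CPM (SD, n = 3 each, log2 fold change -0.25, adjusted p = 0.0428, edgeR). This call was lost in 9 of 16 alternative settings, without any one library but CD24+ replicate 2 among them. Ubtf, which binds along the ribosomal genes, had 308, 313 and 303 CPM in the CD24- libraries and 253, 285 and 263 CPM in the CD24+ libraries and did not pass (-0.21 on the log2 scale, adjusted p = 0.0501 by edgeR). It passed in 6 of 16 settings, DESeq2 among them (adjusted p = 0.0273).

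Among the box C/D snoRNP proteins, 1 of 3 fell, where 22.3% of all genes tested fell, so that this count says little about the role. Fbl, the ribose methyltransferase fibrillarin, had 104, 108 and 110 CPM in the CD24- libraries and 71.7, 87.6 and 73.6 CPM in the CD24+ libraries (log2 fold change -0.46 ± 0.09 SE, adjusted p = 0.00238 by edgeR). Nop56 and Nop58, the paired scaffold proteins of the same particle, had log2 fold changes of -0.02 and -0.07 (standard errors 0.08 and 0.10) and overlapped between the groups. Nop56 had 325, 315 and 343 CPM against 320, 344 and 305 CPM. Reads matching no other gene were 47.8% of the reads that match its transcripts, and on them its log2 fold change was -0.16. When identical reads were counted as 1 it was -0.17, and Nop56 was not called in either setting. The difference between Fbl and its partners was not tested.

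Of the box H/ACA proteins, 2 of 5 fell, again a small count beside the 22.3% of all genes tested. Nolc1, a nucleolar phosphoprotein that accompanies both kinds of snoRNP, had 236, 249 and 276 CPM in the CD24- libraries and 138, 200 and 154 CPM in the CD24+ libraries (log2 fold change -0.62 ± 0.13 SE, adjusted p = 0.00292 by edgeR). When identical reads were counted as 1, its value was -0.40. Gar1, a core protein of the particle, went from 51.4 ± 3.58 CPM to 42.0 ± 3.78 CPM (-0.28 on the log2 scale, adjusted p = 0.0382 by edgeR), and its call was lost in 10 of 16 alternative settings, without any one library but CD24+ replicate 2 among them. Dkc1, the pseudouridine synthase dyskerin, had 173 ± 15.1 CPM and 159 ± 11.5 CPM (-0.12 on the log2 scale, adjusted p = 0.316 by edgeR), and its value was -0.04 without CD24- replicate 3 and -0.19 without CD24+ replicate 2. Nhp2 and Nop10, the other core proteins, had log2 fold changes of -0.21 and -0.25 and did not pass, though Nhp2 was called lower without CD24+ replicate 2 and under median coverage, an estimate that also changes the normalization, adds a regularizer of 10 before the logarithm and is tested with limma. In Nop10 CD24- replicate 3 stood at 39.1 CPM, below every other library, against 54.3 and 59.4 CPM in CD24- replicates 1 and 2, and without it Nop10 was called lower (-0.40). Its value was -0.12 without CD24- replicate 2 and -0.03 under median coverage.

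Of 7 tested factors of small subunit processing, 4 fell and none rose. Heatr1, a large scaffold protein of the early small subunit processome, had 112, 111 and 151 CPM in the CD24- libraries and 79.6, 99.3 and 80.1 CPM in the CD24+ libraries (log2 fold change -0.52 ± 0.14 SE, adjusted p = 0.0101 by edgeR). Rcl1, a factor of early precursor cleavage, had 77.9, 76.9 and 94.3 CPM against 62.8, 63.6 and 59.9 CPM (-0.42 on the log2 scale, adjusted p = 0.00537 by edgeR). Noc4l and Tsr1 fell too, by 0.38 and 0.35 on the log2 scale, but Tsr1 was not called without CD24- replicate 3, CD24+ replicate 1 or CD24+ replicate 3, nor when identical reads were counted as 1. At the other end, Rrp12 and Utp15 had log2 fold changes of -0.18 and -0.07 and overlapped between the groups, and Utp15 stood at -0.18 without CD24+ replicate 2 and at -0.02 without CD24+ replicate 3. Rrp12 had 46.8, 46.3 and 78.0 CPM in the CD24- libraries and 41.1, 62.3 and 45.5 CPM in the CD24+ libraries, with a standard error of 0.21, the largest of the 35. Rrp9, a protein of the particle that guides the first cleavages, did not pass either (-0.25, and -0.08 without CD24- replicate 3).

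Large subunit processing held the members with the largest falls and the one with the highest fold change. Of 12 tested genes, 7 fell. Rrp1b had 81.7, 75.2 and 81.5 CPM in the CD24- libraries and 32.7, 42.3 and 35.6 CPM in the CD24+ libraries (log2 fold change -1.10 ± 0.11 SE, adjusted p = 1.73e-05 by edgeR). Nop16 had 52.7, 56.6 and 51.5 CPM against 28.5, 29.6 and 24.0 CPM (-0.98 on the log2 scale, adjusted p = 3.98e-05 by edgeR). Both genes were in ranges far apart, at 46.4% and 51.1% of the CD24- mean. Ddx18, an RNA helicase, followed at 55.7% (145 ± 9.37 CPM against 80.8 ± 5.81 CPM, log2 fold change -0.84). Ftsj3 and Gnl3, the latter the GTPase nucleostemin, fell by 0.47 and 0.46 on the log2 scale, with falls in all 16 alternative settings. In the estimate built on median coverage, with its own normalization and regularizer, the log2 fold change of Rrp1b was -0.34 and that of Nop16 -0.48, both still called. Polr1b (-0.34), Polr1a (-0.47), Heatr1 (-0.24), Noc4l (-0.19) and Wdr12 (-0.17) also stayed called there, with smaller changes by over 1.5 times.

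Of the 3 proteins of the PeBoW complex, which acts on the large subunit precursor, 2 fell. Wdr12 had 81.7, 82.8 and 79.2 CPM in the CD24- libraries and 55.5, 59.4 and 54.8 CPM in the CD24+ libraries (log2 fold change -0.52 ± 0.08 SE, adjusted p = 4.17e-04 by edgeR). Pes1 had 151, 148 and 164 CPM against 126, 135 and 117 CPM (-0.30 on the log2 scale, adjusted p = 0.0156 by edgeR). Bop1 had 116, 124 and 149 CPM in the CD24- libraries and 160, 157 and 132 CPM in the CD24+ libraries and did not pass (log2 fold change 0.21 ± 0.11 SE, adjusted p = 0.146 by edgeR). The call of Pes1 was lost without CD24+ replicate 3 and when identical reads were counted as 1 (adjusted p = 0.0514, edgeR). Without CD24- replicate 3 Bop1 passed as higher (0.32, adjusted p = 0.0241, edgeR), the one setting in which a member rose, while it stood at 0.14 without CD24- replicate 1 and at 0.11 under median coverage. The difference between Bop1 and the other 2 was not tested. The other members of this role that did not pass were Nop2, an RNA methyltransferase (-0.33), Noc3l (-0.29), Mrto4 (-0.20) and Ebna1bp2 (-0.18). Nop2 was called lower by DESeq2 (adjusted p = 0.0402), with no filter on low counts and without CD24+ replicate 2, and stood at -0.16 without CD24- replicate 3. Noc3l was called lower without CD24- replicate 2 or CD24+ replicate 2, and also stood at -0.16 without CD24- replicate 3. Mrto4 stood at -0.07 without CD24- replicate 3, and Ebna1bp2 at -0.12 without CD24+ replicate 3.

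Nucleolin (Ncl) and nucleophosmin (Npm1), abundant nucleolar proteins that bind RNA and act as histone chaperones, gave the most reads of the list. Ncl had 2205, 2173 and 2379 CPM in the CD24- libraries and 1325, 2011 and 1483 CPM in the CD24+ libraries (log2 fold change -0.49 ± 0.14 SE, adjusted p = 0.0159 by edgeR). CD24+ replicate 2 stood close to the CD24- range, and without CD24+ replicate 3 the call was lost (adjusted p = 0.0578, edgeR). It was also lost when identical reads were counted as 1 (-0.29, adjusted p = 0.193, edgeR) and under median coverage (-0.14, adjusted p = 0.212, limma). Counting identical reads as 1 gives a gene no more than its number of distinct sequences. Copies per distinct gene sequence were 1.71 in CD24+ replicate 1 and 2.25 in CD24+ replicate 3. Median coverage of Ncl was taken over a transcript of 8202 bases. Whether the copies or the transcript length bear on these 2 values of Ncl was not tested. Npm1 had 1828, 1707 and 2023 CPM against 1476, 1704 and 1351 CPM (-0.29 on the log2 scale, adjusted p = 0.0441 by edgeR), so that the groups nearly touched. Its call was lost in 8 of 16 alternative settings, without any one library but CD24+ replicate 2 among them. Unlike Ncl, Npm1 had a larger fall when identical reads were counted as 1 (-0.40, not called) and under median coverage (-0.35, called). Npm3, a relative of Npm1, had 54.9 ± 4.66 CPM in the CD24- group and 58.5 ± 9.98 CPM in the CD24+ group (log2 fold change 0.08), and Ddx21, a helicase of the nucleolus, had 436 ± 82.1 CPM and 390 ± 52.0 CPM (-0.16). Neither passed.

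**Figure D3:**
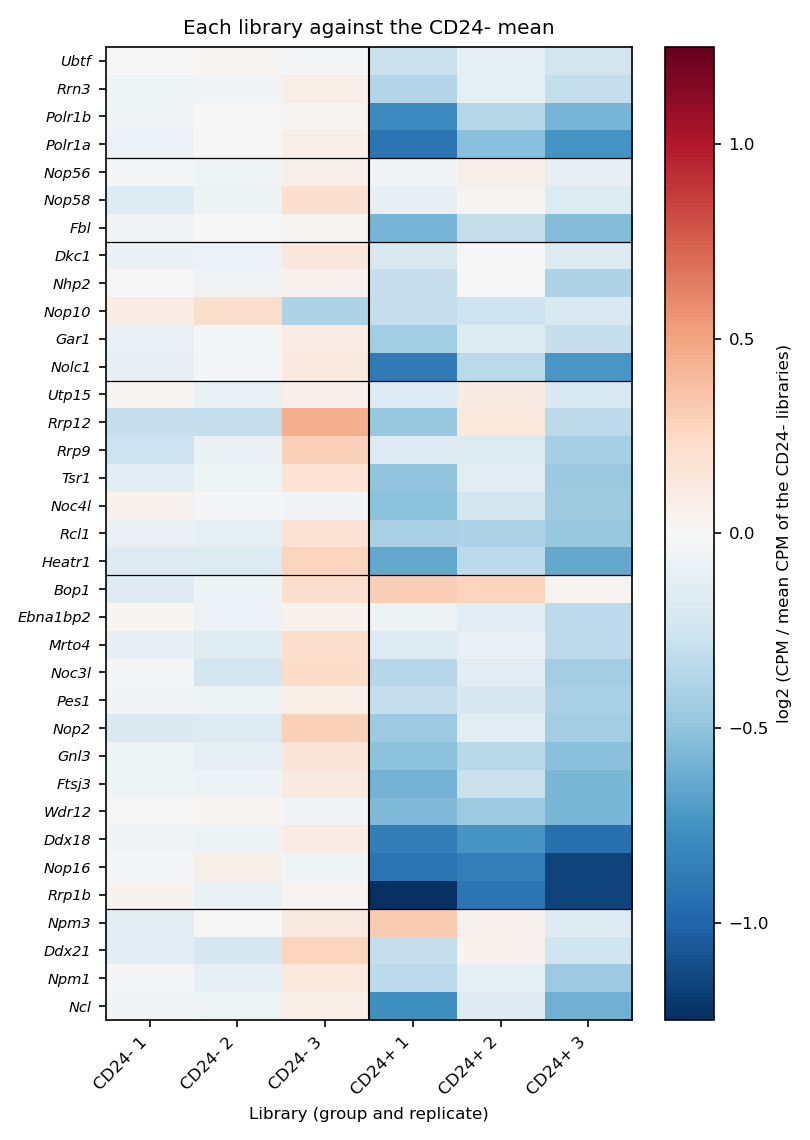
Each row is a member, ordered by role with a line between roles, and each column a library. The colour gives log2 of the CPM over the mean CPM of the CD24- libraries, blue where lower. The CD24+ columns are mostly blue, with the palest values in CD24+ replicate 2, and CD24- replicate 3 is the reddest of the CD24- columns.

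The members also moved together between plates of one group. CD24- replicate 3 was the highest CD24- library for 29 of 35 members (82.9%), against 40.0% of all genes tested, and CD24+ replicate 2 the highest CD24+ library for 30 of 35 (85.7%), against 34.7% of all genes. CD24- replicate 3 was the shallowest CD24- library, and CD24+ replicate 2 had slightly fewer reads than CD24+ replicate 3. CD24+ replicate 2 also had the most reads annotated to ribosomal RNA, 3.51% of mapped reads, and was neither the highest nor the lowest CD24+ library for Myc, while CD24- replicate 3 was the lowest CD24- library for Myc. What sets these plates apart was not tested. Without CD24+ replicate 2, 23 members fell, and without CD24- replicate 3, 16 fell and 1 rose. With any library left out between 13 and 23 members fell, and 13 members were called lower in each of these 6 settings. The 13 were Polr1a, Polr1b, Fbl, Nolc1, Heatr1, Rcl1, Noc4l, Wdr12, Nop16, Ftsj3, Gnl3, Ddx18 and Rrp1b.

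For the 3 members without an annotation, reads that match transcripts of a single GENCODE M21 gene were fitted over all genes in the same way. Wdr43, a factor of early small subunit processing, had 1701, 1831 and 1842 such reads in CD24- cells and 862, 3030 and 2859 in CD24+ cells (log2 fold change -0.31 ± 0.11 SE, adjusted p = 0.0395 by edgeR). Under median coverage Wdr43 was not called (-0.19, adjusted p = 0.0655, limma), and the fit on such reads was not repeated with a library left out. Relative to all such reads this was 186, 179 and 214 CPM in CD24- cells against 133, 173 and 153 CPM in CD24+ cells. Utp20, a very large scaffold protein, had a log2 fold change of -0.35 and did not pass (adjusted p = 0.0992, edgeR). Noc2l had only 19 to 67 reads in a library (-0.10 on the log2 scale, adjusted p = 0.739 by edgeR). Some members share sequence with other GENCODE genes: reads matching no other gene made up 12.6% of the matching reads for Fbl, 25.1% for Ddx18, 33.8% for Mrto4 and 34.1% for Npm1. On such reads alone the log2 fold changes were -0.45, -0.93, -0.21 and -0.30, and the calls were those of the summed counts except for Npm1 (adjusted p = 0.0509, edgeR).

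The E-box CACGTG, a palindrome that reads the same on both strands, was sought in RefSeq promoter windows of GRCm38.p6, 250 bases before to 50 after each annotated start. Of the 38 members 34 had a window, and 6 of them (17.6%) held the motif, against 8.09% of all 27025 genes with a window. The 6 include Utp20 and Wdr43, which were not among the tested genes. Of the tested members with a window, 4 held the motif and 27 did not (3 of 17 called lower and 1 of 14 not called held it). This is near the 12.1% of all tested genes with a window. The 7 matches are shown with up to 12 bases on each side, 5′ to 3′ on the strand of the gene, with the motif in capitals, because Myc binds this motif and the members are listed as its targets.
Rrn3, distal: gagcgccaaggtCACGTGcacacgcctcta
Rrn3, proximal: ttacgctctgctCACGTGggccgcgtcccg
Nop2: gtgtccctggatCACGTGtgttccggtgcc
Pes1: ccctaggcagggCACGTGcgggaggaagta
Tsr1: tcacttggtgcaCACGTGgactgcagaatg
Wdr43: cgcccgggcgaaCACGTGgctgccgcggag
Utp20: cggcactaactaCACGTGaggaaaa
The Rrn3 stretches lie at chr16:13780472-13780501 and chr16:13780639-13780668 (plus strand), with the motif 215 and 48 bases before the start. That of Nop2 lies at chr6:125131811-125131840 (plus strand), 60 bases before the start. The motif of Pes1 (chr11:3963965-3963994, plus strand), Tsr1 (chr11:74898092-74898121, plus strand), Wdr43 (chr17:71616220-71616249, plus strand) and Utp20 (chr10:88826765-88826789, minus strand) lay within the first 50 bases from the RefSeq start. For Wdr43 that start, 71616215, lies inside the GENCODE M21 gene, which begins at 71615895. The 4 tested members with the motif had log2 fold changes between -0.35 and -0.25, with a median of -0.32, and 3 of them fell. The 27 tested members that had a window without it had a median of -0.29, 14 of them fell, and the largest falls of the list (Rrp1b, Nop16) were among them. A match in these windows is a description of sequence, and binding of Myc was not measured.

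The tested members lay on 17 chromosomes, and several chromosomes had a shifted median over all their tested genes. Relative to the median of its own chromosome, a member had a log2 fold change of -0.30 at the median, and 32 of 35 were below 0. Bop1 lies on chromosome 15 (76452989 to 76477277 of GRCm38), whose 387 genes placed by symbol had a median of 0.24, so that Bop1 stood at -0.03 relative to it. Myc lies on the same chromosome (61985391 to 61990374). Ncl, Wdr12, Ddx18 and Nop58 lie on chromosome 1, whose median over 582 genes was -0.19, and relative to it Ncl stood at -0.30 and Nop58 at 0.12. Their position's part in these values was not tested.

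A wider list of 96 other ribosome biogenesis genes was chosen by role, also with earlier results of these data known. Of its 92 tested genes 32 fell and 4 rose, with a median log2 fold change of -0.19 (-0.085 over the 83 tested under median coverage). By role, 20 of 40 factors of the large subunit fell and 3 rose, 9 of 41 factors of the small subunit fell and 1 rose, and 3 of 11 factors of RNA polymerase I transcription fell and none rose. The shares that fell in the small subunit and polymerase lists, 22.0% and 27.3%, were near the 22.3% of all genes tested. Rises were rarer in these lists than among all genes, of which 23.8% rose. The median log2 fold changes of these lists were -0.10 and -0.21, against 0.02 for all genes. Values below 0 were found in 27 of 41 and 9 of 11 genes, against 48.5% of all genes. The largest falls were those of Gtpbp4, a GTPase of the large subunit precursor, Mki67ip, now named Nifk, and Riok1, a kinase of late small subunit maturation. Gtpbp4 went from 195 ± 26.4 CPM to 86.5 ± 7.50 CPM (SD, n = 3 each, log2 fold change -1.17), Mki67ip from 133 ± 8.12 CPM to 59.8 ± 6.79 CPM (-1.15) and Riok1 from 49.9 ± 2.47 CPM to 22.9 ± 1.90 CPM (-1.12). Under median coverage Gtpbp4 was not called (-0.04, adjusted p = 0.612, limma). The largest rises were those of Nol9, an RNA kinase of precursor processing (0.48), Dimt1, a methyltransferase of the small subunit RNA (0.35), and Nol12 (0.34). The rise of Dimt1 was lost in 10 of 16 alternative settings, without any one library but CD24- replicate 3 among them. That of Nol9 was lost without CD24- replicate 1 or CD24+ replicate 2 and under median coverage. That of Nol12 was lost without CD24- replicate 2 or CD24+ replicate 3 and when identical reads were counted as 1. It was also lost after thinning to equal depth and with the replicate number as a block, and Nol12 was not tested under median coverage.

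**Figure D4:**
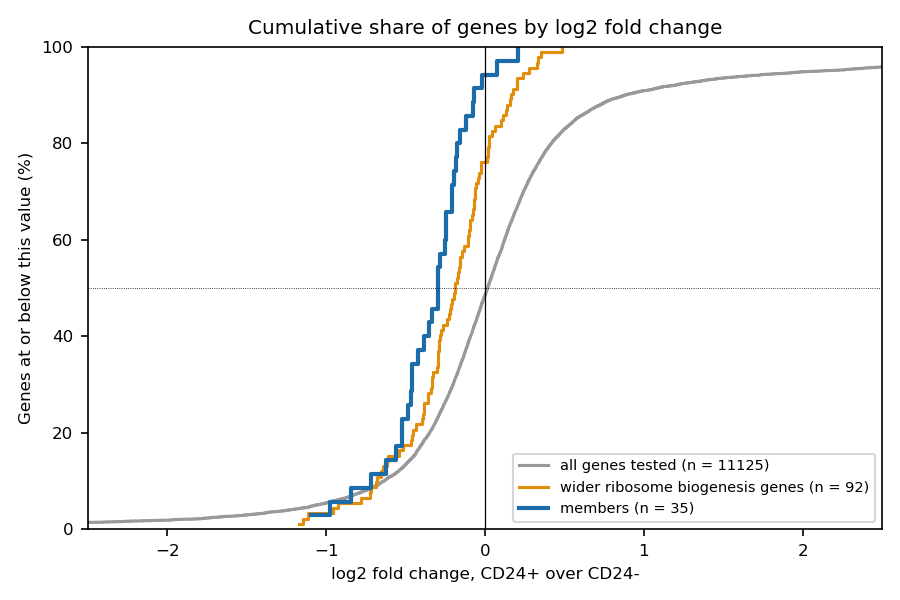
Cumulative share of genes (y axis, percent) at or below each log2 fold change of CD24+ over CD24- cells (x axis, central range) for the 35 members, the 92 wider ribosome biogenesis genes and all 11125 genes tested. The curves cross the dotted line at 50% at -0.29, -0.19 and 0.02, and the curve of all genes is the widest on both sides.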

How the data were processed

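The authors trimmed reads to 47 nt, merged duplicates with a tally of copies, placed the distinct reads on the mouse genome (mm9, per the submitters' processing notes) where they matched exactly, and kept 1 annotation for each. The deposited counts are raw copies of each placed read in each library. Neither mapper nor annotation source is named in the sources used here. Exact matching misses reads across exon junctions and, in this FVB/N line, reads over strain variants, and the counts carry no strand.

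Deposited counts were summed per annotation, and reads of repeats, ribosomal and small RNA or nothing were left out. Genes passing filterByExpr were tested with edgeR 4.0.16 in R 4.3.3 (TMM, quasi-likelihood test, threshold 0.05). Standard errors are the log2 fold change over the root of its F. Libraries within a group differed by more than counting noise, but CD24- replicates 1 and 2 only slightly (chi-square per degree of freedom 1.75, against 9.69 to 15.9 for the other pairs), which bears on the CD24- spread. No source describes independent sorts, so p-values measure the spread between plates. Depth was 6491833 to 19100846 gene reads, and counting error was largest in CD24+ replicate 1.

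Reads were also matched to GENCODE M21 transcripts (GRCm38) by exact sequence. Coordinates of genes are from GENCODE M21. Median coverage was taken over the longest protein-coding transcript of each gene, from the basic GENCODE set where there was one. Alternatives were DESeq2 1.42.0, other scalings and filters, each distinct sequence counted once, reads of a single gene, median coverage with quantile normalization and a regularizer of 10 tested with limma 3.58.1 on the log2 scale, thinning to equal depth, the replicate number as a block and each library left out. On simulated counts of the 11045 genes tested there, edgeR recovered 99.5% of 200 genes changed 2-fold and called 0.0369% of the others. The simulation used 1 dispersion for all genes and no plate effect. Only 1 of 35 members fell 2-fold or more, so these shares do not give the power for the smaller changes of the others.

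Members and lists were chosen with earlier results of these data known. Genes named with values are all members of a role of up to 4 genes, otherwise the 2 highest and 2 lowest of a role, the 3 largest rises and falls of the wider list among called genes (mean log2 CPM from 3 up), Cd24a and Myc. Other members were named to account for the list, and values given for them were chosen after they were seen. 1 gene of the marker lists is not reported here.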

Additional observations from a re-analysis of the deposited data

Results flagged for a closer look

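Reads annotated to ribosomal RNA, the product of the pathway, are outside the gene counts used above. They made up 0.909%, 0.857% and 0.819% of mapped reads in CD24- replicates 1, 2 and 3 and 1.58%, 3.51% and 1.20% in CD24+ replicates 1, 2 and 3, so that the 2 groups did not overlap. Reads of the small subunit RNA were 1.56% of mapped reads in CD24+ replicate 2, against 0.0716% to 0.187% in the other libraries. Those of the large subunit RNA were 1.40%, 1.95% and 1.02% in CD24+ replicates 1, 2 and 3. The high total of CD24+ replicate 2 thus had an uneven make-up. These libraries were made for mRNA, and the difference between the groups was not tested.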

How the results depend on the processing

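The count of members that fell was 19 and lay between 13 and 23 in the 16 alternatives, within 1.5 times the main count in each. None rose, except 1 (Bop1) without CD24- replicate 3, so that 0 to 1 rose with a library left out. Of the 19, 13 were called lower in every alternative and none changed direction. Over all genes, 1550 fell with each distinct sequence counted once (main 2478) and 1698 rose under median coverage (main 2652). Of the wider list, 4 rose as reported and 2 with DESeq2, with each distinct sequence counted once, with reads of a single gene or after thinning, and 1 under median coverage. With a library left out 1 to 7 of the wider genes rose and 21 to 40 fell. Calls of Cd24a and Myc held throughout.

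Of the uncalled members, 7 changed sign in some setting. With a library left out the log2 fold change lay between -0.1492 and 0.0384 for Nop58, -0.0767 and 0.0157 for Nop56, -0.3947 and 0.1094 for Rrp12, -0.2806 and 0.008 for Ddx21 and -0.0562 and 0.177 for Npm3. When identical reads were counted as 1, Npm3 had -0.0447. Under median coverage Npm3 had -0.1132, Utp15 0.0552 and Ebna1bp2 0.0266. The cause was not tested.

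Deviations of same-numbered libraries from their group means correlated at 0.014, -0.251 and -0.310. Those of the other pairs of libraries correlated between -0.202 and 0.303, the highest for CD24- replicate 3 with CD24+ replicate 2. With 3 libraries a group, whose deviations cancel, these values cannot settle whether plates were handled in pairs. With the replicate block 4493 genes were called in all against 5130, 16 members fell, and 26 of the wider genes fell and 1 (Nol9) rose. Library totals without TMM moved the log2 fold change of all genes by -0.0223 at the median. With every library thinned to the depth of CD24+ replicate 1, 18 members fell.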
